A study of Mus musculus with 7 samples.

Results

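The comparison described here set Cspg4- Sdc4+ cells against Cspg4- Sdc4- cells, 2 cell populations of mice that carry a Cspg4-Cre transgene. Each was measured on 1 array, so the pair makes up 2 of the 7 arrays of the series, and it was chosen by the sample labels alone. The series compared mouse populations named by lineage tracing and by syndecan-4 (Sdc4), under a title that speaks of dermal myogenic precursors and satellite cells. Both populations of the pair carry the strain label B6,FVB-Tg(Cspg4-cre)1Akik/J and are labelled Cspg4-, so the transgene is shared and they differ in the Sdc4 label. The same contrast exists in CD1 mice, an outbred stock labelled Crl:CD1(ICR), as CD1 Sdc4+ and CD1 Sdc4- cells, again with 1 array each. The 3 other arrays hold Myf5SOR+ Sdc4+, B195AP+ Sdc4- and Cspg4+ cells. Per the labels, 8 to 10 animals were used for each phenotype and between 10 and 200 ng of RNA was labelled. The material is thus pooled or summed over animals in a way the labels do not detail, and the age of the mice, the site sampled and the way cells were separated are not given in the sources used here. With 1 array a side there is no spread between replicates, so no p-value is given for any difference, and every statement compares these arrays rather than the conditions.

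Cspg4 encodes the NG2 proteoglycan of pericytes and other perivascular cells, and a Cspg4-driven Cre marks such cells and their descendants. Syndecan-4 is a transmembrane heparan sulphate proteoglycan that acts as a co-receptor for fibronectin and growth factors at focal adhesions, and it is widely used as a surface marker of satellite cells, which renew skeletal muscle. Satellite cells that enter myogenesis switch on the factors Myf5, Myod1 and Myog and then the contractile proteins of the sarcomere, with embryonic and perinatal myosins ahead of the adult ones. Immediate early, inflammatory and oxidative stress genes form response programmes that most cell types can switch on.

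The arrays were of the Agilent 8x60K mouse design, on which a gene is read by 1 or more 60-base probes. Levels are given as log2 of the processed signal minus the array's 75th percentile, so that 0 is that percentile and 1 unit is a factor of 2. A spot counted as measured where the scanner software called it well above background, which held for 46.4% of non-control spots on the Cspg4- Sdc4+ array and for 49.0% on the Cspg4- Sdc4- array. The median processed signal was 9.40 on the Cspg4- Sdc4+ array and 12.6 on the Cspg4- Sdc4- array, in scanner units. Repeated spots of a probe put the error of a difference at 0.107 log2 units, which covers spot error only. All 7 arrays lay on 1 slide, with every Sdc4+ population in its first row and the others in its second, so slide row and Sdc4 label cannot be told apart.

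Of 20076 genes measured on at least 1 of the 2 arrays, 1167 (5.81%) were at least 2-fold higher in Cspg4- Sdc4+ cells and 982 (4.89%) at least 2-fold lower. The median difference was 0.015 log2 units, with quartiles at -0.28 and 0.30, and 51.5% of genes were higher by any amount. Many of the genes past 2-fold were measured on one array only: 509 of those higher and 675 of those lower. Among the 17813 genes well above background on both arrays, 658 were at least 2-fold higher and 307 at least 2-fold lower. For a gene at background on one array the fold is given below as a bound, taken against the higher of its own signal and the lowest signal well above background there. With such bounds in place, 1003 genes were at least 2-fold higher and 523 at least 2-fold lower. Folds also depend on how background is handled. After normexp correction, another way of removing it that here adds an offset of 50 units, 89 of 168 named genes were no longer past 2-fold. In the CD1 pair, 685 (3.35%) of 20472 genes were at least 2-fold higher in Sdc4+ cells and 763 (3.73%) at least 2-fold lower.

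**Figure D1:**
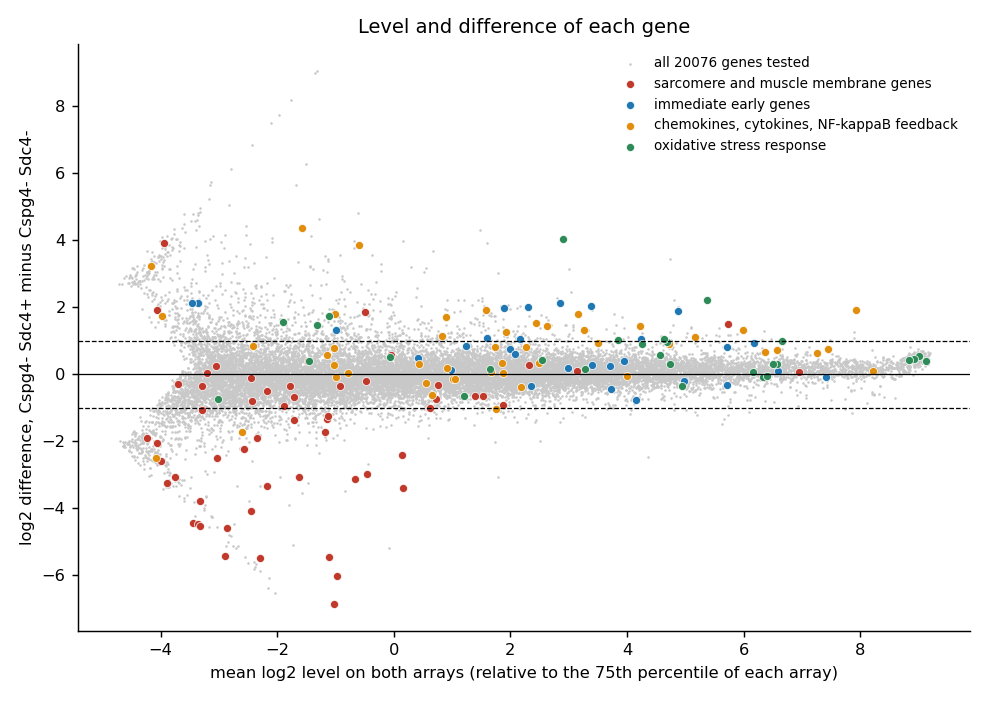
Mean log2 level over both Cspg4- arrays (x axis, relative to the 75th percentile) against the log2 difference of Cspg4- Sdc4+ minus Cspg4- Sdc4- (y axis) for 20076 genes, with 4 gene lists in colour. Large differences lie mostly at low levels, where many genes were measured on one array only, and most sarcomere genes lie below 0.

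Sdc4, the gene that names the fractions, stood at a log2 level of 6.49 in Cspg4- Sdc4+ cells and 5.30 in Cspg4- Sdc4- cells, a difference of 1.20 log2 units or 2.29-fold. In the CD1 pair it stood at 6.56 in Sdc4+ cells and 5.49 in Sdc4- cells, a difference of 1.07 log2 units. Both pairs thus carried more Sdc4 RNA in the fraction labelled Sdc4+, while the gene was far above the 75th percentile in the fractions labelled Sdc4- too. Its single probe covers chromosome 2, bases 164251211 to 164251270 of mm9, on the minus strand. Cspg4 stood at 0.55 in Cspg4- Sdc4+ cells and 0.84 in Cspg4- Sdc4- cells, against 1.34 in Cspg4+ cells, so its RNA was measured in the populations labelled negative. Its probe covers chromosome 9, bases 56746627 to 56746686 of mm9.

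The other members of the syndecan and glypican family differed less. Sdc1, Sdc2 and Sdc3 were higher in Cspg4- Sdc4+ cells by 0.43, 0.22 and 0.35 log2 units, and Sdc4 itself was the 1 of 8 measured family members past 2-fold. None of 19 measured partners of syndecan-4 did so. Among those partners Itga5, a subunit of the fibronectin receptor, differed by 0.92, the focal adhesion kinase gene Ptk2 by -0.75, the actin cross-linker gene Actn1 by 0.69 and fibronectin itself, Fn1, by 0.17 log2 units.

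Genes of the sarcomere were lower in Cspg4- Sdc4+ cells than in Cspg4- Sdc4- cells. Of 52 listed genes 34 were measured, and 20 of these were at least 2-fold lower and 1 at least 2-fold higher, with a median difference of -2.08 log2 units beside 0.015 for all genes. Of the 34, 20 were above background in Cspg4- Sdc4+ cells and all 34 in Cspg4- Sdc4- cells. On a pair of bulk arrays, fewer cells of a type and less RNA per cell cannot be told apart. All 20 of the lower genes were at least 2-fold lower in CD1 Sdc4+ cells than in CD1 Sdc4- cells as well, where 35 of 43 measured sarcomere genes were.

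The myosins of developing muscle stood furthest apart. Myh8, the perinatal myosin heavy chain, was not well above background in Cspg4- Sdc4+ cells and stood at 2.41 in Cspg4- Sdc4- cells, at least 55.8-fold lower. In CD1 it stood at -1.97 in Sdc4+ cells and 4.02 in Sdc4- cells, 63.7-fold lower. Myh3, the embryonic myosin heavy chain, was at least 43.1-fold lower in Cspg4- Sdc4+ cells, where it was not well above background, against 2.03 in Cspg4- Sdc4- cells. A second Myh3 probe was not well above background in Cspg4- Sdc4+ cells either. Myl1, a fast myosin light chain, was at least 32.2-fold lower against a level of 1.61 in Cspg4- Sdc4- cells, and its second probe was likewise not well above background in Cspg4- Sdc4+ cells. All 3 genes were at background on the Cspg4- Sdc4+ array, while on the Cspg4- Sdc4- array they were above the 75th percentile.

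Thin filament and scaffold genes ran the same way and in part were measured on both arrays. The fast troponin gene Tnnc2 stood at -1.54 in Cspg4- Sdc4+ cells and 1.87 in Cspg4- Sdc4- cells, a difference of -3.41. Skeletal actin, Acta1, stood at -2.22 in Cspg4- Sdc4+ cells and 0.90 in Cspg4- Sdc4- cells, 8.70-fold lower. Cardiac actin, Actc1, which is also the actin of developing skeletal muscle, stood at -1.07 in Cspg4- Sdc4+ cells and 1.33 in Cspg4- Sdc4- cells, 5.29-fold lower. The thin filament ruler nebulin, Neb, differed by -3.07, with a second probe not well above background in Cspg4- Sdc4+ cells, and the fast troponins Tnni2 and Tnnt3 differed by -2.97 and -1.74. Titin (Ttn), the spring of the sarcomere, Myom2 of the M band and the adult fast myosin Myh1 were not well above background in Cspg4- Sdc4+ cells and were at least 7.11-fold, 14.4-fold and 9.31-fold lower. The cardiac and slow troponins Tnnt2 and Tnni1 and the slow myosin-binding protein Mybpc1 were at least 7.89-fold, 3.74-fold and 7.44-fold lower, all not well above background in Cspg4- Sdc4+ cells. Other sarcomere genes differed little. The tropomyosins Tpm1, Tpm2 and Tpm3, which many cell types use, differed by 0.28, 0.10 and 0.07 log2 units, and the slow myosin gene Myh7 by -0.11 log2 units. Cryab, a small heat shock protein of muscle and many other tissues, was 2.82-fold higher, at 6.49 in Cspg4- Sdc4+ cells and 4.99 in Cspg4- Sdc4- cells, with 1.33 log2 units on a second probe.

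The size of the list's median depended on the dim genes. It was -1.46 with dim genes at their bounds, -0.60 over the 20 genes above background on both arrays, of which 6 were at least 2-fold lower, and -0.52 after another background correction (normexp), when 13 of 34 were.

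**Figure D2:**
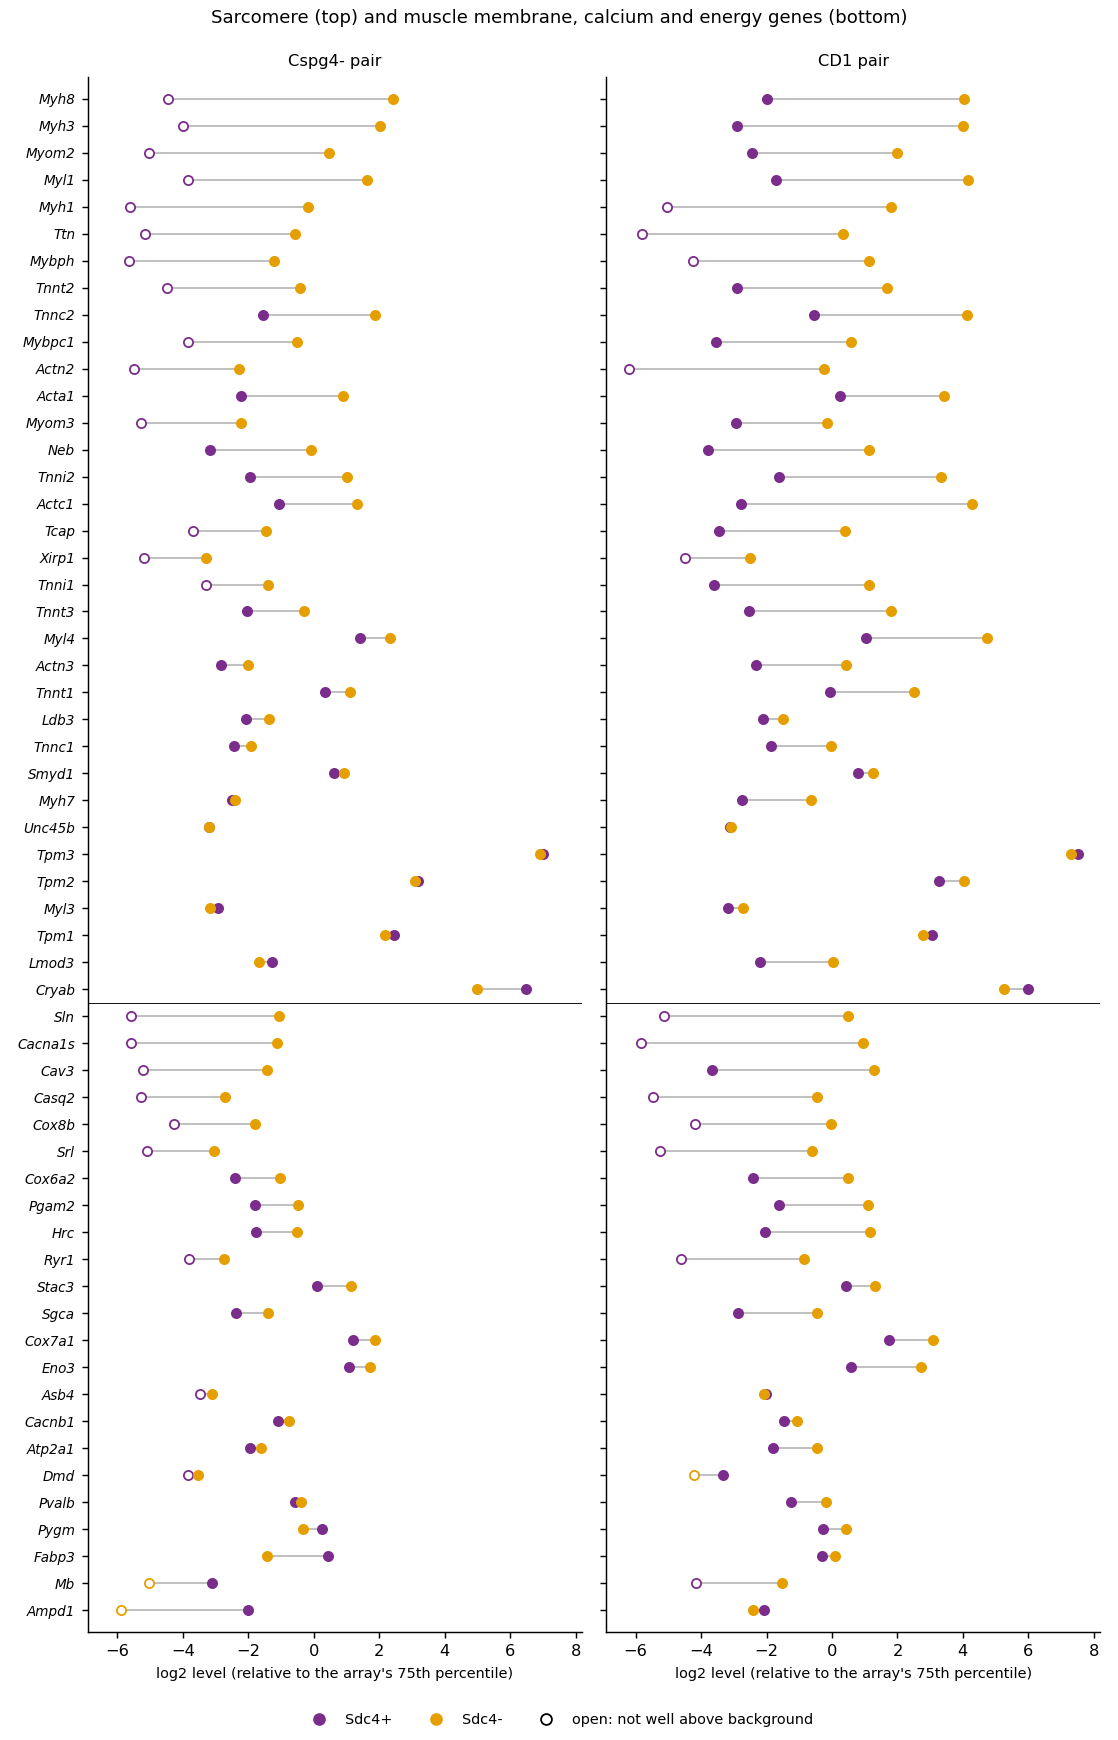
Log2 level (x axis, relative to each array's 75th percentile) of 34 sarcomere genes (top) and 23 genes of muscle membrane, calcium handling and energy supply (bottom), with the Cspg4- pair on the left and the CD1 pair on the right. Open symbols mark values not well above background. Most sarcomere genes lie lower in Sdc4+ cells in both pairs.

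Genes of muscle membrane, calcium handling and energy supply showed a smaller shift. Of 32 listed 23 were measured, 11 of them at least 2-fold lower and 3 at least 2-fold higher, with a median of -0.96. In CD1, 22 of 29 were at least 2-fold lower in Sdc4+ cells and none higher, with a median of -2.64. Cacna1s, the voltage sensor of the muscle calcium channel, was not well above background in Cspg4- Sdc4+ cells and stood at -1.13 in Cspg4- Sdc4- cells, at least 4.80-fold lower. The calcium pump regulator Sln was at least 5.03-fold lower and caveolin-3, Cav3, at least 3.91-fold lower, both not well above background in Cspg4- Sdc4+ cells. Cox6a2, a muscle subunit of cytochrome oxidase, stood at -2.40 in Cspg4- Sdc4+ cells and -1.03 in Cspg4- Sdc4- cells, 2.59-fold lower. The glycolytic enzyme gene Pgam2 and the calcium store gene Hrc, measured on both arrays, were 2.52-fold and 2.39-fold lower. These genes encode proteins of differentiated fibres.

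Fabp3, a fatty acid carrier of heart and muscle that other tissues also use, went the other way, at 0.44 in Cspg4- Sdc4+ cells and -1.42 in Cspg4- Sdc4- cells, 3.63-fold higher, with 1.85 log2 units on a second probe. The myoglobin gene Mb stood at -3.10 in Cspg4- Sdc4+ cells and was not well above background in Cspg4- Sdc4- cells, at least 1.54-fold higher, while in CD1 it was lower in Sdc4+ cells. Ampd1, the AMP deaminase of muscle, was at least 3.30-fold higher. After normexp correction 1 of the 23 genes was at least 2-fold lower and the median was -0.18. The size of this shift thus depends on the background correction with its added offset.

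Promoters of 3 genes from these muscle lists are shown because they hold the E-box CAGCTG, a letter string that myogenic factors of the Myod1 family are known to bind. They are the 250 bases before the start of transcription in RefSeq (GRCm38.p6), written 5′ to 3′ on the gene's strand, with the E-box in capitals, and were chosen after the values were seen. The windows are chr1:66945057-66945306 on the minus strand for Myl1, chr1:136052561-136052810 on the plus strand for Cacna1s and chr6:112459255-112459504 on the plus strand for Cav3.
Myl1: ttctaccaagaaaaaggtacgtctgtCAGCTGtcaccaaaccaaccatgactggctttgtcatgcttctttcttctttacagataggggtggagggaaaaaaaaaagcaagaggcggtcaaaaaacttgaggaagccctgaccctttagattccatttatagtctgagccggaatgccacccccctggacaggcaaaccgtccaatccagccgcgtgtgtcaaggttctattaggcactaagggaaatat
Cacna1s: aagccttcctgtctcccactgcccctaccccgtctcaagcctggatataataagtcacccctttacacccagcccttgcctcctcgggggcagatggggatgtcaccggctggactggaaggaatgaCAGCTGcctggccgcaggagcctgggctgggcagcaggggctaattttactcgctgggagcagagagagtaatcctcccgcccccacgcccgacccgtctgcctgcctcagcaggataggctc
Cav3: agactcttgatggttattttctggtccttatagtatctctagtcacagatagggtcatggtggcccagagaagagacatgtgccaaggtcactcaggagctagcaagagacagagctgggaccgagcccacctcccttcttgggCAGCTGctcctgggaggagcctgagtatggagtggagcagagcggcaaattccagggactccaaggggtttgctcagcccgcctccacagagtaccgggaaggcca
Counted from -1 at the base before the start, the E-box begins at position -224 in Myl1, -123 in Cacna1s and -106 in Cav3. With both strands searched, it was found in 8 of 25 sarcomere promoters and in 7 of 18 promoters of the membrane and energy list, against 12.8% of 27025 mouse promoters. The CArG box of serum response factor was found in 4 of 25 sarcomere promoters, against 1.40% of all. A match describes the letters of a window and not binding.

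The regulators above the contractile genes were mostly out of reach of the arrays. Pax7 and Pax3, the satellite cell and muscle precursor factors, and Myf5 were not well above background on any of the 7 arrays. Myod1 was measured on the CD1 Sdc4- array alone, at -2.79. Myog, which drives terminal differentiation, stood at -2.47 in Cspg4- Sdc4+ cells and -1.43 in Cspg4- Sdc4- cells, 2.05-fold lower, on a spot inside a bright patch of the array. In CD1 it was not well above background in Sdc4+ cells and stood at 0.64 in Sdc4- cells. The satellite cell label could therefore not be checked against its defining transcription factors here.

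Of 24 listed myogenic regulators 17 were measured, with 1 at least 2-fold higher, 3 at least 2-fold lower and a median of 0.04. Mymk, the membrane protein that lets myoblasts fuse, was not well above background in Cspg4- Sdc4+ cells and stood at -1.57 in Cspg4- Sdc4- cells, at least 3.53-fold lower. The homeobox gene Six4 stood at -1.14 in Cspg4- Sdc4+ cells and -2.70 in Cspg4- Sdc4- cells, 2.95-fold higher. Eya2, a transcriptional coactivator, was at least 1.96-fold lower on a spot inside a bright patch. Desmin, Des, the intermediate filament of muscle, was at least 2.39-fold lower.

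Surface genes of satellite cells were split. Of 17 measured, 3 were at least 2-fold higher and 2 at least 2-fold lower, with a median of -0.01. Vcam1, the cell adhesion molecule used to sort satellite cells, stood at 3.11 in Cspg4- Sdc4+ cells and 1.13 in Cspg4- Sdc4- cells, 3.93-fold higher, with 1.05 log2 units on a second probe. In CD1 it stood at 2.34 in Sdc4+ cells and 1.69 in Sdc4- cells. Heyl, a Notch target of quiescent satellite cells, stood at -1.99 in Cspg4- Sdc4+ cells and was not well above background in Cspg4- Sdc4- cells, at least 3.34-fold higher. In CD1 it stood at -1.21 in Sdc4+ cells and -3.01 in Sdc4- cells. Ncam1, which appears on committed muscle cells and on nerve, stood at 1.38 in Cspg4- Sdc4+ cells and 2.40 in Cspg4- Sdc4- cells, 2.03-fold lower, with -0.71 on a second probe measured on both arrays. M-cadherin (Cdh15) and integrin alpha-7 (Itga7) differed by -0.48 and 0.40 log2 units. The acetylcholine receptor delta subunit Chrnd was at least 4.82-fold lower, being not well above background in Cspg4- Sdc4+ cells, and the alpha subunit Chrna1 stood at 3.21 in Cspg4- Sdc4+ cells and 4.19 in Cspg4- Sdc4- cells. Of 8 measured receptor genes 1 was at least 2-fold lower and none higher.

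Immediate early genes, which cells switch on within minutes of a stimulus, leaned higher in Cspg4- Sdc4+ cells. Of 29 measured entries of a list of 32, in which a pair of genes also appears under older names, 11 were at least 2-fold higher and none lower. The median was 0.76, and 23 of the 29 were higher by any amount, beside 51.5% of all genes. Atf3, a stress-induced transcription factor, stood at 3.92 in Cspg4- Sdc4+ cells and 1.79 in Cspg4- Sdc4- cells, 4.38-fold higher, but at 2.91 in CD1 Sdc4+ cells and 2.98 in CD1 Sdc4- cells. Klf4 stood at 4.40 in Cspg4- Sdc4+ cells and 2.36 in Cspg4- Sdc4- cells, 4.10-fold higher, and at 4.36 in CD1 Sdc4+ cells and 4.17 in CD1 Sdc4- cells. On both genes the Cspg4- Sdc4- array was the low one of the 4.

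The growth arrest genes Gadd45a and Gadd45b were 3.98-fold and 3.70-fold higher. Gadd45a stood at 3.30 in Cspg4- Sdc4+ cells and 1.31 in Cspg4- Sdc4- cells, and Gadd45b at 5.82 in Cspg4- Sdc4+ cells and 3.93 in Cspg4- Sdc4- cells. Ccn2, the connective tissue growth factor, stood at 2.88 in Cspg4- Sdc4+ cells and 0.90 in Cspg4- Sdc4- cells, 3.94-fold higher. The nuclear receptor Nr4a3 and the zinc finger gene Egr4, both not well above background in Cspg4- Sdc4- cells, were at least 2.50-fold and 2.68-fold higher. The mRNA decay factor gene Zfp36 was 2.50-fold higher, and Fosb, Btg2 and Klf2 were higher by 1.04, 1.05 and 1.08 log2 units. The classic members Fos, Jun and Egr1 differed by 0.26, -0.08 and -0.19 log2 units. In the CD1 pair the list's median was -0.07, none was at least 2-fold higher in Sdc4+ cells and 3 were at least 2-fold lower. Of the 11 genes higher in Cspg4- Sdc4+ cells, 4 ran the same way in CD1 and none by 2-fold.

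Cytokines and feedback genes of NF-kappaB, the transcription factor of inflammatory signalling, leaned higher as well. Of 31 listed 27 were measured, 8 of them at least 2-fold higher and 1 at least 2-fold lower, with a median of 0.67. Tnf, the gene of tumour necrosis factor, stood at 0.60 in Cspg4- Sdc4+ cells and was not well above background in Cspg4- Sdc4- cells, at least 20.1-fold higher. In CD1 it stood at -0.39 in Sdc4+ cells and -2.27 in Sdc4- cells. Its probe covers chromosome 17, bases 35336795 to 35336854 of mm9. Il6 stood at 2.55 in Cspg4- Sdc4+ cells and 1.29 in Cspg4- Sdc4- cells, 2.40-fold higher, and at 3.13 in CD1 Sdc4+ cells and 3.72 in CD1 Sdc4- cells. Its direction thus differed between the pairs.

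Feedback genes of the pathway followed. Nfkbie, an inhibitor of NF-kappaB, stood at 1.75 in Cspg4- Sdc4+ cells and 0.03 in Cspg4- Sdc4- cells, 3.29-fold higher. Tnfaip3, the enzyme A20 that shuts the signal off, stood at 4.93 in Cspg4- Sdc4+ cells and 3.50 in Cspg4- Sdc4- cells, 2.68-fold higher. Relb, a subunit of the factor, was 2.72-fold higher on its brightest probe, with 1.38 and 0.12 log2 units on its other probes, so the probes disagree. The RNase gene Zc3h12a, which degrades cytokine mRNAs, was 2.19-fold higher. Csf2, not well above background in Cspg4- Sdc4- cells, was at least 2.24-fold higher, and Csf3, not well above background in Cspg4- Sdc4+ cells, at least 3.13-fold lower. In CD1 the list's median was 0.10, with 3 genes at least 2-fold higher and 3 lower, and 4 of the 8 genes higher in Cspg4- Sdc4+ cells ran the same way.

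Chemokines, the attractants of leukocytes, leaned the same way. Of 28 listed 21 were measured, 9 of them at least 2-fold higher and 2 at least 2-fold lower, with a median of 0.80. Ccl9 stood at 1.33 in Cspg4- Sdc4+ cells and -2.53 in Cspg4- Sdc4- cells, 14.6-fold higher, and at -0.77 in CD1 Sdc4+ cells and -0.09 in CD1 Sdc4- cells. Ccl2, the monocyte attractant, stood at 8.89 in Cspg4- Sdc4+ cells and 6.97 in Cspg4- Sdc4- cells, 3.78-fold higher, while CD1 held 8.16 in Sdc4+ cells and 8.12 in Sdc4- cells. The monocyte attractants Ccl7 and Ccl8 were 2.17-fold and 2.90-fold higher, and in CD1 they differed by 0.39 and 1.02 log2 units. The membrane-bound chemokine Cxcl16 was 3.49-fold higher and the neutrophil attractant Cxcl1 2.47-fold higher. For Cxcl10, an interferon-induced chemokine, and Cxcl12, the ligand of Cxcr4, the brightest probes gave 3.45-fold and 3.74-fold, but second probes gave 0.53 and 0.43 log2 units. The B cell attractant Cxcl13 ran the other way, at 1.25 in Cspg4- Sdc4+ cells and 2.27 in Cspg4- Sdc4- cells. In CD1 the median of the list was -0.49, with 1 gene at least 2-fold higher in Sdc4+ cells and 3 lower.

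Macrophages are a known source of such genes. Of 13 measured macrophage and myeloid markers, out of 26 listed, 12 were above background in Cspg4- Sdc4+ cells and 12 in Cspg4- Sdc4- cells. Their levels, on a linear scale with the 75th percentile at 1, summed to 259 in Cspg4- Sdc4+ cells and 251 in Cspg4- Sdc4- cells. Such sums are carried by the brightest members, as the median log2 level was -1.09 in Cspg4- Sdc4+ cells and -2.09 in Cspg4- Sdc4- cells. Cd68 stood at 2.53 in Cspg4- Sdc4+ cells and 2.54 in Cspg4- Sdc4- cells, and Itgam at 5.71 in Cspg4- Sdc4+ cells and 5.64 in Cspg4- Sdc4- cells. Csf1r stood at 2.82 in Cspg4- Sdc4+ cells and 2.06 in Cspg4- Sdc4- cells. Adgre1 and the leukocyte gene Ptprc were not well above background on either array. The myeloid list had a median difference of 0.17, with 10 of 13 genes higher by any amount. None was at least 2-fold higher and 1 was at least 2-fold lower. The lower gene was Laptm5, not well above background in Cspg4- Sdc4+ cells, with a bound of 1.72-fold. The part of macrophages in the chemokine and cytokine differences was not tested. Interferon-induced genes stood level, with a median of 0.00 over 40 genes and 1 at least 2-fold higher. That pathway's factor Irf1 stood at 5.89 in Cspg4- Sdc4+ cells and 3.87 in Cspg4- Sdc4- cells.

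Genes of the oxidative stress response, many of them targets of the factor Nfe2l2, leaned higher in Cspg4- Sdc4+ cells. Of 30 listed 29 were measured, 8 of them at least 2-fold higher and none lower, with a median of 0.42 and 24 higher by any amount. Osgin1, an oxidative stress growth inhibitor, stood at 4.93 in Cspg4- Sdc4+ cells and 0.88 in Cspg4- Sdc4- cells, 16.5-fold higher. In CD1 it stood at 2.48 in Sdc4+ cells and 1.32 in Sdc4- cells, 2.23-fold higher. Its probe covers chromosome 8, bases 121970077 to 121970136 of mm9. Hmox1, the enzyme that breaks down haem, stood at 6.48 in Cspg4- Sdc4+ cells and 4.28 in Cspg4- Sdc4- cells, 4.60-fold higher, with 2.14 log2 units on a second probe. Its CD1 levels were 5.39 in Sdc4+ cells and 4.45 in Sdc4- cells. Both genes were higher in the Sdc4+ cells of each pair.

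Enzymes of glutathione supply made up much of the rest. The cystine carrier gene Slc7a11 stood at -1.11 in Cspg4- Sdc4+ cells and -2.68 in Cspg4- Sdc4- cells, 2.97-fold higher. The subunits of glutamate-cysteine ligase, the first enzyme of glutathione synthesis, were 2.74-fold higher for Gclm and higher by 1.02 log2 units for Gclc. The conjugating enzyme gene Gsta2 was 3.35-fold higher, and the thioredoxin system genes Txnrd1 and Prdx1 differed by 1.06 and 1.00. The quinone reductase gene Nqo1 differed by 0.50 and Nfe2l2 itself by -0.34. All 8 genes past 2-fold ran the same way in CD1, 1 of them by 2-fold. The CD1 median over the list was 0.05, with 15 of 29 genes higher in CD1 Sdc4+ cells.

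**Figure D3:**
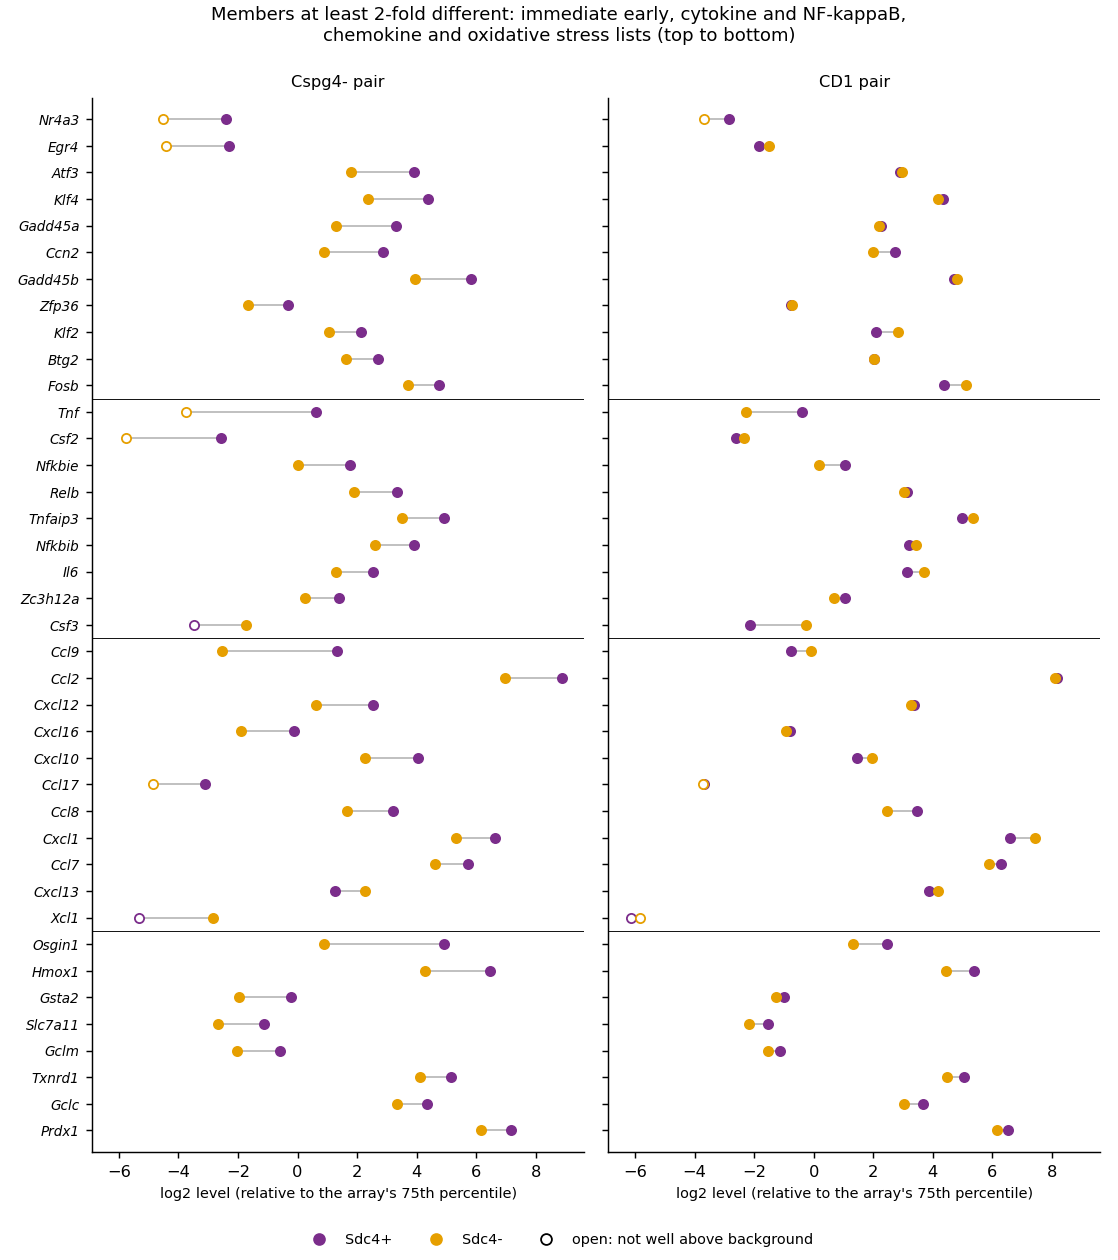
Log2 levels (x axis, relative to each array's 75th percentile) of the members of 4 response lists that differed by at least 2-fold in the Cspg4- pair, with the Cspg4- pair on the left and the CD1 pair on the right. Open symbols mark values not well above background. Members were picked for the left-hand difference, and Osgin1, Hmox1 and Tnf lie higher in Sdc4+ cells in both pairs.

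Promoters of 4 of these response genes are shown for the letters they hold, again as the 250 bases before the RefSeq start (GRCm38.p6) and chosen after the values were seen. Capitals mark the kappaB site, which reads GGGA, any base, then TTTCC, and TGAGTCA, the AP-1 site TGACTCA read on the other strand, in Il6, the kappaB site in Cxcl1, TGACTCA in Osgin1, and the antioxidant response element TGACNNNGC on the other strand in Gclm. The windows, each on the plus strand, are chr5:30012864-30013113 for Il6, chr5:90890995-90891244 for Cxcl1, chr8:119436897-119437146 for Osgin1 and chr3:122245307-122245556 for Gclm.
Il6: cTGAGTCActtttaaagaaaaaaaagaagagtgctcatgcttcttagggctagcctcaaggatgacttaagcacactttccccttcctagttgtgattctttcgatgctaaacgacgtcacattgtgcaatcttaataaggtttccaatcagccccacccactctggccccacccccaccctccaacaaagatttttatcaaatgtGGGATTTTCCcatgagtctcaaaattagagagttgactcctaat
Cxcl1: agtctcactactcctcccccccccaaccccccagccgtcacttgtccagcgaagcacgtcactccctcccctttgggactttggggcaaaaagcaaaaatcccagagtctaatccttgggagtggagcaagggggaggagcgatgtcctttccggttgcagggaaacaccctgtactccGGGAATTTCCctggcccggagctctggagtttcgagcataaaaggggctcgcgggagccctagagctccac
Osgin1: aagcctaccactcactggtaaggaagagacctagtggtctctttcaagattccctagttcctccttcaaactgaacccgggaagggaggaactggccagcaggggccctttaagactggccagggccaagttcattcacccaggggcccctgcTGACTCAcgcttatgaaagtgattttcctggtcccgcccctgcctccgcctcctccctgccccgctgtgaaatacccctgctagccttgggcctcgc
Gclm: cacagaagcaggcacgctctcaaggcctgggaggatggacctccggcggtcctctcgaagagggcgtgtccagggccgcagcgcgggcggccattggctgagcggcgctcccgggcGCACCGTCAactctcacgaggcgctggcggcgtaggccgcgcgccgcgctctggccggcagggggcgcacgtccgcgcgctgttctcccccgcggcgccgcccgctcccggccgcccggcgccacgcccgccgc
The kappaB site begins at position -44 in Il6 and -71 in Cxcl1, the AP-1 site at -249 in Il6 and -97 in Osgin1, and the antioxidant element at -134 in Gclm. On either strand the kappaB site was found in 3 of 23 cytokine promoters and 2 of 14 chemokine promoters, against 0.337% of all. These shares cover all measured members. Among those past 2-fold the site was in 1 of 7 cytokine and 1 of 8 chemokine promoters. The antioxidant element was found in 7 of 25 promoters of the oxidative list, against 10.1% of all. The AP-1 site, which can overlap it, was found in 5 of 25, against 4.43%. Of the 6 oxidative promoters whose genes were past 2-fold, 2 held the antioxidant element and 2 the AP-1 site. None of 24 immediate early promoters held the AP-1 site, and 2 held the cyclic AMP element TGACGTCA, against 1.62% of all.

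Signalling pathways of progenitor cells differed gene by gene. In the BMP and TGF-beta pathway 7 of 34 measured genes were at least 2-fold higher, beside 5.81% of all genes. None was at least 2-fold lower, and the median was 0.29. All 7 ran the same way in CD1, where 21 of 34 measured genes of the list were higher in Sdc4+ cells. The ligand gene Bmp4 stood at 0.12 in Cspg4- Sdc4+ cells and -1.31 in Cspg4- Sdc4- cells, 2.69-fold higher. The Id genes encode inhibitors of myogenic helix-loop-helix factors and are switched on by BMP signals. Id3 stood at 5.52 in Cspg4- Sdc4+ cells and 4.07 in Cspg4- Sdc4- cells, and at 6.08 in CD1 Sdc4+ cells and 5.20 in CD1 Sdc4- cells. Id1 was 2.48-fold and Id4 3.35-fold higher in Cspg4- Sdc4+ cells. The inhibitory gene Smad7 stood at 0.77 in Cspg4- Sdc4+ cells and -0.86 in Cspg4- Sdc4- cells, 3.11-fold higher. The ligand gene Tgfb2 was 2.18-fold higher with 0.92 log2 units on a second probe.

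The Notch pathway keeps satellite cells from differentiating. Of its 22 measured genes 4 were at least 2-fold higher and 3 lower, beside 5.81% and 4.89% of all genes. The ligand gene Jag1 stood at 0.88 in Cspg4- Sdc4+ cells and -1.51 in Cspg4- Sdc4- cells, 5.24-fold higher. The target gene Hes1 stood at -0.46 in Cspg4- Sdc4+ cells and was not well above background in Cspg4- Sdc4- cells, at least 9.60-fold higher, while in CD1 it stood at 0.30 in Sdc4+ cells and 0.10 in Sdc4- cells. Dtx2, a regulator of Notch, stood at 2.14 in Cspg4- Sdc4+ cells and 3.58 in Cspg4- Sdc4- cells. Dtx1, of the same family, and the ligand gene Jag2 were not well above background in Cspg4- Sdc4+ cells and at least 2.15-fold and 1.37-fold lower.

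Wnt pathway genes leaned lower, with a median of -0.25. Of 28 measured, 3 were at least 2-fold higher and 5 lower, beside 5.81% and 4.89% of all genes. The Wnt inhibitor gene Wif1 stood at 3.12 in Cspg4- Sdc4+ cells and 5.60 in Cspg4- Sdc4- cells, 5.57-fold lower, but at 5.63 in CD1 Sdc4+ cells and 5.66 in CD1 Sdc4- cells. Rspo1 and Rspo4, enhancers of Wnt signals, were 2.68-fold and 2.52-fold lower and the ligand gene Wnt11 3.13-fold higher. Wnt16 differed by -3.48 on a spot inside a bright patch and by 0.75 on its other probe, which was not well above background in Cspg4- Sdc4- cells, so it has no settled direction.

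The list of insulin-like growth factor genes had 4 of 16 at least 2-fold lower, beside 4.89% of all genes, and none higher. These were Igf2, Igfbp2, Igfbp3 and H19, which the list includes. Igf2 differed by -2.30, but lay between -2.58 and -0.032 across the settings run. The binding protein gene Igfbp3 stood at 1.76 in Cspg4- Sdc4+ cells and 3.12 in Cspg4- Sdc4- cells, 2.58-fold lower. Igfbp2 differed by -1.58. A second probe of each was not well above background in Cspg4- Sdc4+ cells and lower there too. Igfbp2 was higher by 1.22 in CD1 Sdc4+ cells. H19, the imprinted non-coding RNA abundant in developing muscle, stood at 2.49 in Cspg4- Sdc4+ cells and 3.61 in Cspg4- Sdc4- cells, 2.18-fold lower, and differed by -3.31 in CD1. Among other growth factors the neuregulin gene Nrg1 stood at 2.61 in Cspg4- Sdc4+ cells and 0.43 in Cspg4- Sdc4- cells, 4.54-fold higher, and the ERK phosphatase gene Dusp6 was 2.51-fold lower against a level of 6.33 in Cspg4- Sdc4- cells.

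Markers of some other cell types of skin differed too. Keratinocyte genes had a median of 0.98, with 24 listed and 15 measured. Of the 15, 7 were at least 2-fold higher and 2 lower, beside 5.81% and 4.89% of all genes. After normexp correction 3 were at least 2-fold higher and none lower, with a median of 0.48. Krt17 stood at 1.20 in Cspg4- Sdc4+ cells and -2.57 in Cspg4- Sdc4- cells, 13.7-fold higher, and Krt5, a keratin of the basal layer, at -0.28 in Cspg4- Sdc4+ cells and -2.03 in Cspg4- Sdc4- cells. The junction gene Perp was 10.4-fold higher and Krt18, a keratin of simple epithelia, 3.71-fold higher, while Krt19, not well above background in Cspg4- Sdc4+ cells, was at least 2.74-fold lower. The desmosome gene Dsp had probes that disagreed, one not well above background in Cspg4- Sdc4+ cells and the other not so in Cspg4- Sdc4- cells. Of the list 13 genes were above background on each array, with summed linear levels of 42.7 in Cspg4- Sdc4+ cells and 51.4 in Cspg4- Sdc4- cells. These sums are carried by the brightest members, as the median log2 level was -0.28 in Cspg4- Sdc4+ cells and -2.03 in Cspg4- Sdc4- cells. In CD1 the list stood level, with a median of -0.02 and 2 of 15 measured genes at least 2-fold higher and 2 lower.

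Mast cell genes had a median of 0.92. Of 11 measured, 5 were at least 2-fold higher and 1 lower, beside 5.81% and 4.89% of all genes. The lower gene was Fcer1a, not well above background in Cspg4- Sdc4+ cells, with a bound of 1.16-fold. After normexp correction 1 was at least 2-fold higher and none lower, with a median of 0.59. The protease gene Mcpt4 stood at -0.64 in Cspg4- Sdc4+ cells and -3.13 in Cspg4- Sdc4- cells, 5.65-fold higher, and Cma1 at -1.37 in Cspg4- Sdc4+ cells and -2.89 in Cspg4- Sdc4- cells, 2.88-fold higher. Carboxypeptidase A3, Cpa3, differed by -0.37. In CD1 the direction was opposite, with a median of -1.35 and 7 genes at least 2-fold lower in Sdc4+ cells. Of the list 10 genes were above background in Cspg4- Sdc4+ cells and 9 in Cspg4- Sdc4- cells. The linear levels summed to 159 in Cspg4- Sdc4+ cells and 196 in Cspg4- Sdc4- cells. These sums are carried by the brightest members, as the median log2 level was -1.28 in Cspg4- Sdc4+ cells and -2.89 in Cspg4- Sdc4- cells. The part of keratinocytes and mast cells in the other differences was not tested.

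A pair of Fc receptor genes differed by over 4-fold. Fcgr2b, the inhibitory receptor for immunoglobulin G, stood at 3.64 in Cspg4- Sdc4+ cells and -0.68 in Cspg4- Sdc4- cells, 19.9-fold higher, and at 1.49 in CD1 Sdc4+ cells and -1.87 in CD1 Sdc4- cells, 10.3-fold higher. Fcgr3 stood at 1.03 in Cspg4- Sdc4+ cells and was not well above background in Cspg4- Sdc4- cells, at least 24.7-fold higher. In CD1 it stood at -0.31 in Sdc4+ cells and was not well above background in Sdc4- cells. The probes lie on chromosome 1 of mm9, at bases 172890988 to 172891047 and 172984129 to 172984188. The genes are close relatives, so a probe of one may read RNA of the other. Of 8 measured Fc receptor genes, 2 were at least 2-fold higher, 1 lower and 5 within 2-fold, so the pair does not speak for the family. The lower gene was Fcer1a, not well above background in Cspg4- Sdc4+ cells, with a bound of 1.16-fold.

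Of 10 measured lymphocyte genes 3 were at least 2-fold higher, beside 5.81% of all genes. Among them were Gata3, at 0.17 in Cspg4- Sdc4+ cells and -3.04 in Cspg4- Sdc4- cells, and Cd79b, at least 8.90-fold higher. The T cell receptor chain Cd3e differed by -0.64. The pericyte, endothelial, dermal fibroblast, smooth muscle and adipocyte lists stood close to level. Pericyte genes had a median of -0.02 with 1 of 15 at least 2-fold lower, endothelial genes a median of 0.04 with none of 9 past 2-fold, and dermal fibroblast genes a median of -0.07 with 1 of 26 higher and 2 lower, among them the matrix gene Mfap4, at -1.03. Smooth muscle genes had a median of -0.07 and adipocyte genes 0.14. Dermal papilla genes leaned lower, with a median of -0.42 and 11 of 17 lower by any amount. Of these 17 genes 1 was at least 2-fold higher and 2 lower. Corin, among the 2, was not well above background in Cspg4- Sdc4+ cells and had a bound of 1.06-fold. Schwann and neural crest genes had a median of -0.20, with 12 of 14 lower by any amount. At least 2-fold lower were 4 of the 14, beside 4.89% of all genes, and 1 was at least 2-fold higher. Taken as the median over each gene's probes, 2 were at least 2-fold lower and 2 higher. Among the 4, Mbp lay in a bright patch and a second Tfap2a probe had the opposite sign. Gap43 of that list, a growth cone protein, stood at 0.61 in Cspg4- Sdc4+ cells and 2.12 in Cspg4- Sdc4- cells and differed by -1.46 in CD1. The melanocyte gene Mlana stood at -1.24 in Cspg4- Sdc4+ cells and -3.33 in Cspg4- Sdc4- cells, 4.26-fold higher, and 2 of 8 measured genes of its list were past 2-fold. The adipocyte factor Cfd stood at 0.08 in Cspg4- Sdc4+ cells and -2.59 in Cspg4- Sdc4- cells, 6.37-fold higher.

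Matrix and housekeeping lists also stood near 0. Of 30 measured collagen genes 5 were at least 2-fold higher and 3 lower, beside 5.81% and 4.89% of all genes. By the same measure 3 of 34 proteases and inhibitors were higher and none lower. Of 36 matrix glycoproteins 1 was higher and 3 were lower. Col14a1 and Col12a1, collagens that bind to fibrils, were 3.34-fold and 2.39-fold lower, with -0.56 log2 units on a second Col14a1 probe, and the network collagen gene Col4a5 was 2.94-fold higher. Tenascin C, Tnc, a matrix protein of repair, stood at 2.05 in Cspg4- Sdc4+ cells and 3.22 in Cspg4- Sdc4- cells, 2.24-fold lower, with -0.60 on a second probe. The collagenase gene Mmp8 was 2.62-fold higher, and by 1.83 log2 units in CD1. Of 27 hypoxia and glycolysis genes 1 was at least 2-fold higher and 2 lower, among them Car9, a carbonic anhydrase of hypoxic cells. It stood at -2.14 in Cspg4- Sdc4+ cells and -0.18 in Cspg4- Sdc4- cells, 3.91-fold lower, and was lower in CD1 Sdc4+ cells than in CD1 Sdc4- cells too, at -0.71 against 1.29. Cell cycle genes had a median of -0.20 with 1 of 39 past 2-fold on each side, and cholesterol synthesis genes a median of 0.05 with none of 26. Ribosomal protein genes were higher in 50 of 52 cases with a median of 0.34, but none by 2-fold, and the median was 0.01 after quantile normalization and 0.14 without saturated probes. In CD1 the ribosomal median was -0.28.

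**Figure D4:**
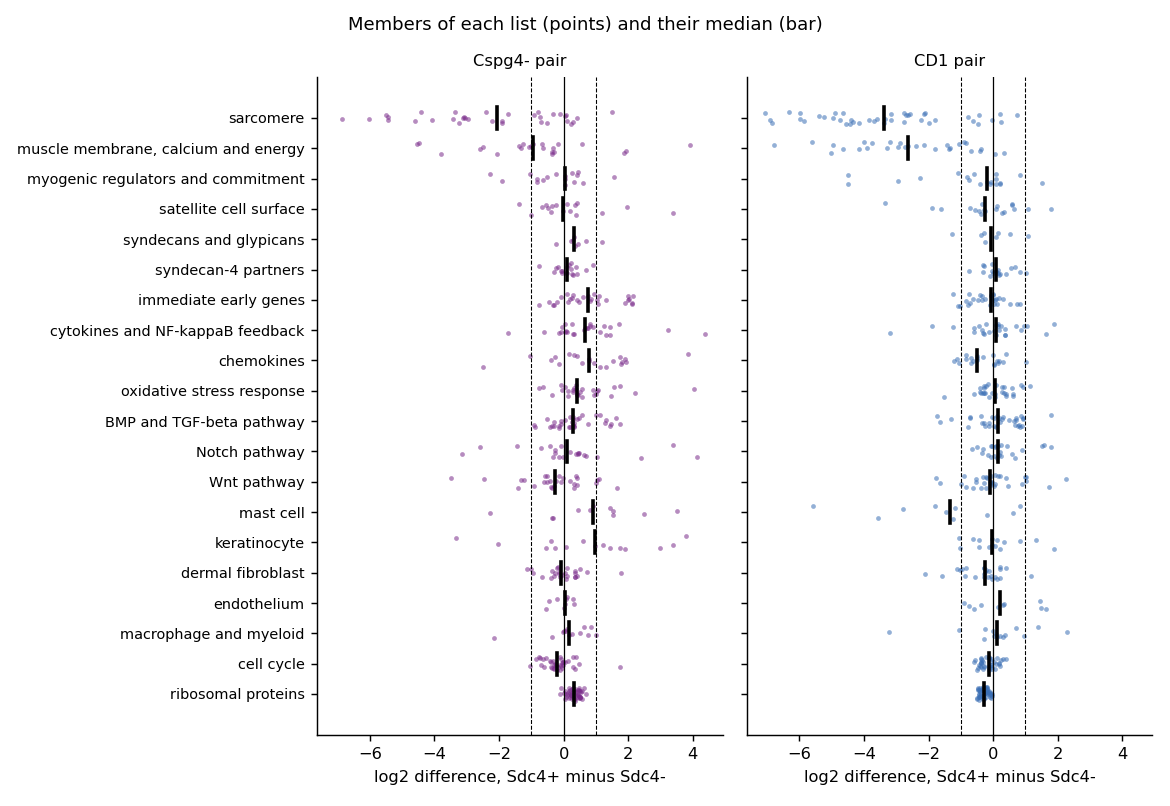
Log2 difference of Sdc4+ minus Sdc4- (x axis) for the members of 20 gene lists, with the Cspg4- pair on the left and the CD1 pair on the right, each with its own measured genes. Points are genes and bars are medians. The sarcomere median lies at -2.08 in the Cspg4- pair and -3.38 in CD1, while mast cell and chemokine medians lie on opposite sides of 0.

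Outside the lists, genes were named where at least 2 probes, all well above background on both arrays, differed by at least 2-fold in the same direction. There were 38 such genes higher and 10 lower. Stmn4, a microtubule regulator of neurons, stood at 0.19 in Cspg4- Sdc4+ cells and -2.96 in Cspg4- Sdc4- cells, a difference of 3.15 with 3.43 on its second probe. F3, tissue factor, which starts blood clotting, stood at 4.27 in Cspg4- Sdc4+ cells and 1.82 in Cspg4- Sdc4- cells, with 2.45 and 2.28 log2 units on its probes. Cabyr, a calcium-binding protein of sperm, differed by 2.74, the neurotrophic cytokine gene Cntf by 2.10, the kinase activator gene Cdk5r1 by 1.96, the protocadherin gene Pcdh10 by 1.93, the tubulin gene Tubb2b by 1.77 and the small GTPase gene Gem by 1.76. In CD1 F3, Cabyr and Cdk5r1 differed by 0.85, 0.74 and 0.49 log2 units. Stmn4, Tubb2b and Gem ran the other way there, by -0.46, -0.76 and -0.45, and Cntf and Pcdh10 were level, at -0.016 and -0.012. Hmox1, Vcam1 and Fabp3, described above, met the rule as well. Of the 10 lower genes the troponin gene Tnnt3 led, at -1.74. It was followed by Gm3893 at -1.54, by Vps13a, a lipid transfer protein, at -1.44 and by Mamdc4 at -1.44. The DNA polymerase gene Polk at -1.13, the collagen cross-linking gene Loxl4 at -1.09 and the oxygen sensor gene Egln3 at -1.02 closed the list with Ankle1, Eml2 and Fignl1, between -1.20 and -1.03. In CD1 Gm3893, Polk and Loxl4 ran the other way, by 0.52, 0.18 and 0.67 log2 units, and the rest of the 10 were lower in Sdc4+ cells.

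Genes measured on one array only gave the largest bounds, but part of them lay in bright patches. A patch is a window of 9 by 9 spots with at least 5 spots over 4-fold brighter than the median of the other 6 arrays, and patches held 290 spots of the Cspg4- Sdc4+ array and 538 of the Cspg4- Sdc4- array. Of the 10 largest upward bounds, 4 lay in patches, those of Svs3b, Tmprss11b, Iqcf5 and Pax2, and of the 10 largest downward bounds 3 did, those of Ttc9b, Myt1l and Casp14. Outside patches, besides Fcgr3 and Tnf, the calcium-binding protein gene Necab2 had a bound of 4.86 log2 units, the granzyme gene Gzmm one of 4.14, Ddit4l one of 3.66 and Plcxd2 one of 3.46. On the downward side Myh8, Myh3 and Myl1 led, followed by the olfactory receptor genes Olfr763 at -4.42 and Olfr1340 at -4.04, the M band gene Myom2 and Iqcj at -3.71. Among all genes past 2-fold, 46 of those higher and 68 of those lower lay in patches.

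Second probes gave a check within the same RNA. For 3659 genes with more than 1 probe well above background on both arrays, the difference between the probes' values had an SD of 0.455 log2 units, and 95.9% lay within 1 unit. Of 93 such genes at least 2-fold higher on the brighter probe, 43 were so on the second and 86 had the same direction. Of 40 at least 2-fold lower, 12 were so on the second and 35 had the same direction. None was past 2-fold in opposite directions. A second probe reads the same RNA and is no replicate of a population.

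**Figure D5:**
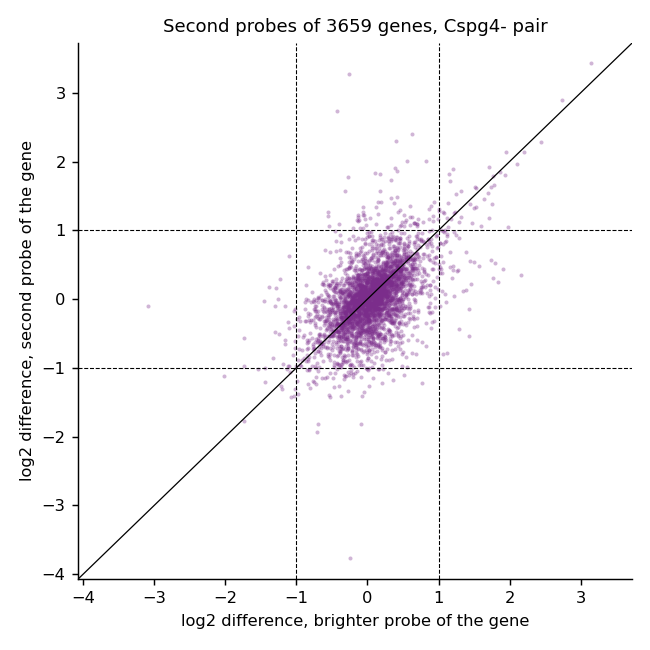
Log2 difference of Cspg4- Sdc4+ minus Cspg4- Sdc4- on the brighter probe (x axis) against a second probe (y axis) of 3659 genes. Of the points, 95.9% lie within 1 unit of equality, and past 2-fold on the x axis the second probe mostly has the same sign and is often under 2-fold.

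The CD1 pair shares no array with the Cspg4- pair, though it shares the slide and its rows. Among genes above background on all 4 arrays, 634 were at least 2-fold higher in Cspg4- Sdc4+ cells, and 460 of these, 72.6%, were higher in CD1 Sdc4+ cells too. In CD1 53 of the 634 (8.36%) were at least 2-fold higher, and 11 were at least 2-fold the other way. Among all genes measured on at least 1 CD1 array, 3.35% were at least 2-fold higher in CD1 Sdc4+ cells and 3.73% lower. Of 300 lower genes 209, or 69.7%, were lower in CD1. By at least 2-fold 49 of the 300 (16.3%) were lower there, and 8 were at least 2-fold the other way. Over 17446 genes the differences of both pairs had a Pearson correlation of 0.297, a description across genes, which are not independent replicates. Most genes past 2-fold in the Cspg4- pair thus had the same direction in CD1, and few differed by 2-fold there. The share of all 17446 genes that were higher in CD1 was not counted, so the shares by direction stand without a background.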

How the data were processed

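Spot intensity was read by the authors with Agilent Feature Extraction on 1-colour arrays, per the file headers, which also give probe coordinates on mm9. The processed intensity is background-subtracted by that software. The authors' normalized log2 values, deposited as a table of the series and made with lumi per the submitters' processing notes (version not given here), served as an alternative only.

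For each array the log2 processed intensity was taken relative to the 75th percentile over non-control probes. Outlier spots were dropped and spots of a probe averaged. A probe entered if either array of the pair had it well above background, and the probe with the highest mean stood for its gene. Array positions gave 62976 spots, 59305 of them non-control, and 55681 probes. With 1 array a group no test was run and a difference of 2-fold was used to count. The scanned signal and the number of arrays limit the precision.

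Genes were named as those of the satellite cell programme, as the 15 highest and 15 lowest (10 existed) with all probes past 2-fold, as the 10 highest and 10 lowest bounds, and as up to 4 list members a side past 2-fold, with others given as pathway context. The members and lists were chosen with earlier results of these data known. Probes were named by RefSeq or Ensembl accession where that matched a single gene, which held for 27726 of 55681. The others kept the symbol of the files. Of the 20076 genes tested, 14186 carried a RefSeq symbol. Promoter windows came from RefSeq (GRCm38.p6), a build from which no probe position was read. Whether a probe lies in an exon or an untranslated region was not read here.

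Alternatives were normexp correction (offset 50), other scalings, filters on dim probes, other probe rules and the deposited table. Leaving out bright patches was chosen after seeing the data. Python 3.11.15, R 4.3.3 and limma 3.58.1 (normexp, quantile and cyclic loess) were used, and the counting was tested on simulated data.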

Additional observations from a re-analysis of the deposited data

Results flagged for a closer look

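Several values ran one way in the Cspg4- pair and the other way in the CD1 pair, each as Sdc4+ minus Sdc4- on 1 array a side. The difference between the pairs was not tested. The median of the mast cell list was 0.92 in the Cspg4- pair and -1.35 in CD1, and that of the chemokine list 0.80 in the Cspg4- pair and -0.49 in CD1. Mast cell protease genes shared this pattern. Mcpt4 differed by 2.50 in the Cspg4- pair and -1.46 in CD1, Cma1 by 1.52 in the Cspg4- pair and -3.57 in CD1, and Tpsab1 by 1.52 in the Cspg4- pair and -2.80 in CD1. All 3 were not well above background in CD1 Sdc4+ cells, and Tpsab1 was not so in Cspg4- Sdc4- cells either, so those sizes are taken against background.

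Myoglobin, Mb, differed by 1.93 in the Cspg4- pair and -2.64 in CD1, and Sfrp4, a Wnt inhibitor, by 1.10 in the Cspg4- pair and -1.77 in CD1. Both were not well above background in Cspg4- Sdc4- cells and in CD1 Sdc4+ cells, so these sizes are taken against background, and the bounds in the Cspg4- pair are 0.62 for Mb and 0.97 for Sfrp4, both under 2-fold. Mylk, the kinase of smooth muscle myosin, differed by 1.03 in the Cspg4- pair and -1.03 in CD1, but by 0.43 on a second probe in the Cspg4- pair. Igfbp2, a binding protein of insulin-like growth factors, differed by -1.58 in the Cspg4- pair and 1.22 in CD1.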

How the results depend on the processing

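Sdc4 was higher in Cspg4- Sdc4+ cells under every alternative run, by 0.90 to 1.20 log2 units. The counts of genes at least 2-fold higher and lower, 1167 and 982, were 268 and 117 after normexp correction, 658 and 307 among genes well above background on both arrays, and 2483 and 1562 with no filter, which put the median of all genes at 0.226. Of the genes past 2-fold, 54.3% were higher with the values given above and 69.6% after normexp. Among genes well above background on both arrays it was 68.2%. The sarcomere median of -2.08 was -0.52 after normexp, -0.60 on both arrays and -1.07 with no filter, and lay between -2.14 and -1.80 otherwise. Counts in other lists fell after normexp as well. At least 2-fold higher were then 5 of 29 immediate early genes, with 1 lower, and 3 of 29 oxidative stress genes. So were 6 of 27 cytokine and NF-kappaB genes, 8 of 21 chemokines, 3 of 15 keratinocyte genes and 1 of 11 mast cell genes. For the filters, genes enter or leave by construction. Normexp was run with an offset of 50 signal units, beside median processed signals of 9.40 in Cspg4- Sdc4+ cells and 12.6 in Cspg4- Sdc4- cells. An added constant shrinks the folds of dim spots by construction. How much of the fall came from the offset and how much from the background model was not tested.

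Among named genes past 2-fold, the direction turned for 6. Dpp4 (-1.13) gave 0.12, Lipe (-1.03) 0.030, Hoxa9 (-1.03) 0.0081 and Tfap2a (-1.18) 2.27 after normexp, and Tfap2a 2.81 as the median over its probes. Dsp (-3.33) gave 3.06 after quantile normalization, 3.02 in the deposited table, 0.0083 as the median over its probes and 3.37 with outlier spots kept. Tfap2a and Dsp each had another probe of opposite sign, at 6.80 and 3.34 log2 units. A Tfap2a spot lay in the densest bright patch of the Cspg4- Sdc4+ array. Wnt16 (-3.48) gave 0.75 without bright patches. After normexp 89 of 168 named genes were no longer past 2-fold, and in the deposited values 28 were not.

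No paired analysis was possible because each group has 1 array and the groups share fewer than 2 replicate numbers. Signal near background limits genes measured on one array to bounds.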
